A study of Mus musculus with 4 samples.

Results

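The interleukin 1 (IL-1) family genes and decoys followed here are Il1a, Il1b, Il1rn, Il1r1, Il1r2, Il1rap, Il18, Il18r1, Il18rap and Il18bp. They were taken by symbol, each matched 1 row, and they are 10 of the 32285 genes measured. The mice carried tumours of B16-F10, a melanoma line of mouse origin that is grown by transplantation. The control group received dilution buffer into the tumour and IgG into a vein, and the CD40 group an antibody to the costimulatory receptor CD40 into the tumour and IgG into a vein. The PD1 group received buffer into the tumour and an antibody to the inhibitory receptor PD1 into a vein, and the combination group both antibodies. Treatments were given on days 8 and 11, tumours were taken on day 14, and live CD45+ cells (leukocytes) from 6 pooled mice per group were made into 1 droplet library of 5′ single-cell RNA. The labels name melanoma as the cell type although CD45+ cells were sorted, and only 6, 6, 9 and 3 cells passed a melanoma marker gate. Strain, sex and age are not given in the labels used here.

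IL-1 alpha and IL-1 beta are inflammatory cytokines that signal through a receptor of 2 chains, IL1R1 and the accessory protein IL1RAP. The pathway is restrained by a receptor antagonist (Il1rn), which occupies IL1R1 without signalling, and by the decoy receptor IL1R2, which binds the ligand but lacks a signalling domain. IL-18, a related cytokine, acts on T and NK cells through IL18R1 and IL18RAP and raises their interferon gamma, and the soluble binding protein IL18BP takes it up before it reaches its receptor.

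Il1a and Il1b lie side by side on mouse chromosome 2, both on the minus strand (GRCm38, GENCODE vM21), Il1a at chr2:129299610-129309972 and Il1b at chr2:129364570-129371139, 54597 bases apart. The genes Il1r2, Il1r1, Il18r1 and Il18rap form a second run on chromosome 1, all on the plus strand, within 477627 bases (chr1:40074079-40551705). Il1rn is at chr2:24336853-24351494, Il1rap at chr16:26581704-26730117, Il18 at chr9:50554827-50581840 and Il18bp at chr7:102014885-102018690. The 250 bases before the start of Il1a and of Il1b are shown because these neighbours differed in how they varied between libraries. Sequences are from RefSeq (GRCm38.p6), 5′ to 3′ on the minus strand, at chr2:129309973-129310222 and chr2:129371140-129371389.
Il1a promoter: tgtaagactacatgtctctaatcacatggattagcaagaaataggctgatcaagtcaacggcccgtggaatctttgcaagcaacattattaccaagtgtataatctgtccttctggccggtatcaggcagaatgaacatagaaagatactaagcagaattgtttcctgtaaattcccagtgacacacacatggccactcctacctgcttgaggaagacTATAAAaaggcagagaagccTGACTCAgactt
Il1b promoter: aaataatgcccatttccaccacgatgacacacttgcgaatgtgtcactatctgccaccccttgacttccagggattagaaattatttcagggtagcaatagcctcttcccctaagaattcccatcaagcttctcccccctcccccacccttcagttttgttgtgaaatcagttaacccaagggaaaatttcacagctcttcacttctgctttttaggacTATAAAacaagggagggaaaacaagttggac
Capitals mark the TATA box letters TATAAA, found in both, and the AP-1 letters TGANTCA, found in Il1a only. In Il1a they lie at positions -32 to -27 and -12 to -6 from the start, and the TATA letters of Il1b at -31 to -26. Both strands were searched in the 250 bases, and 12.4% of 32851 RefSeq promoters held TATAAA and 6.75% TGANTCA. An NF-kB motif (in 4.65% of promoters) and the letters TTCNNNGAA (GAS, 7.02%) and TTNNGCAA (C/EBP, 9.56%) were not in either window. These matches describe letters and not bound sites.

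The libraries held 8132 to 10158 barcodes and 117735875 to 164755549 unique molecular identifiers (UMIs), with a median of 11111.5 to 14126 UMIs per barcode. Quality filters and a doublet score left 7736 (control), 7757 (CD40), 9681 (PD1) and 9481 (combination) cells, and each pair of libraries shared 94 to 144 barcode sequences. Cells were named by marker gates that used none of the 10 genes, so that a name means only that a cell passed its gate. No gate took 9.53% of cells and several gates took 3.64%. Levels are in CPM, with each library's class brought to the same UMI total, each UMI standing for 1 captured molecule, and no scaling by gene length was applied. With 1 library per group no spread between replicates could be measured, and no difference was tested. Parentheses hold 95% intervals (exact Poisson for CPM, exact conditional binomial for log2 ratios, exact Clopper-Pearson for shares) and cover counting error only. All libraries are given in the order control, CD40, PD1 and combination.

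Over all barcodes Il1a stood apart in 1 library. It had 480, 1123, 700 and 15585 UMIs, or 4.08, 7.15, 4.70 and 94.6 CPM of the whole library. Il1b had 188, 144, 278 and 656 CPM and Il1rn 192, 252, 306 and 564 CPM. The combination library was highest for all 3 genes, and the CD40 library was lowest for Il1b but not for Il1a. Il18bp had 28.6, 48.6, 77.1 and 74.7 CPM, Il1r2 between 48.7 and 94.5, and Il18, Il18r1 and Il18rap between 30.1 and 62.3. Il1rap lay between 10.7 and 17.97 CPM, and Il1r1 was the lowest of the 10 at 0.358 to 0.739 CPM. In whole-library totals, more cells of a type and more RNA per cell cannot be told apart, so the levels below are within cell classes.

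**Figure D1:**
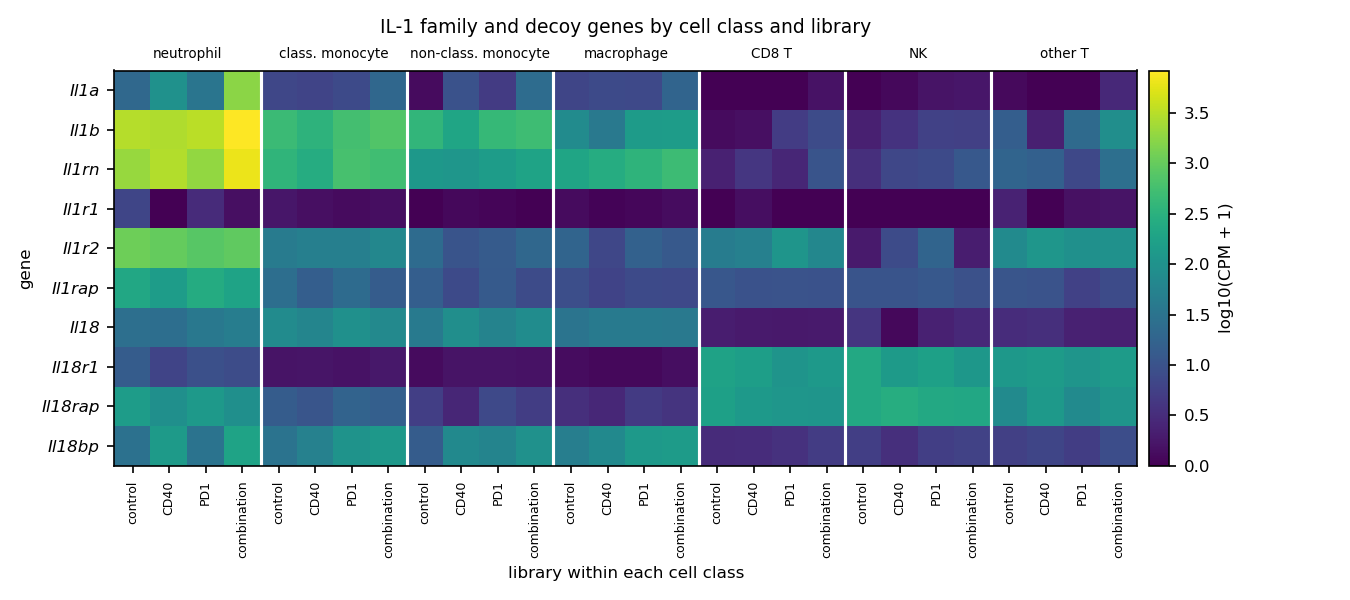
Level of the 10 genes (rows) in the 7 cell classes that reached 100 cells in each library, as log10(CPM + 1), with the 4 libraries side by side in each class. Il1a reached 1751 CPM in the neutrophils of the combination library, and Il18r1 was seen mainly in T and NK cells, whereas Il18rap was also at 89.0 to 146 CPM in neutrophils.

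The cells that held the IL-1 transcripts differed between libraries. Neutrophils, which were 2.68%, 5.94%, 1.80% and 13.1% of kept cells, held 2.32%, 17.5%, 2.34% and 79.5% of the Il1a UMIs. Their part of Il1b was 7.68%, 26.8%, 4.08% and 54.7%, and of Il1rn 5.09%, 15.5%, 2.13% and 48.2%. Neutrophils were thus the main source of all 3 transcripts in the combination library alone. In the control library macrophages held 52.4% of Il1a and 40.7% of Il1rn, and classical monocytes 38.1% of Il1b. For Il1r2, cDC2 cells held 27.4% in the control and 13.03% in the PD1 library, where the gate found 289 and 258 such cells, but 0.219% and 0.0553% in the CD40 and combination libraries, where it found 13 and 6.

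**Figure D2:**
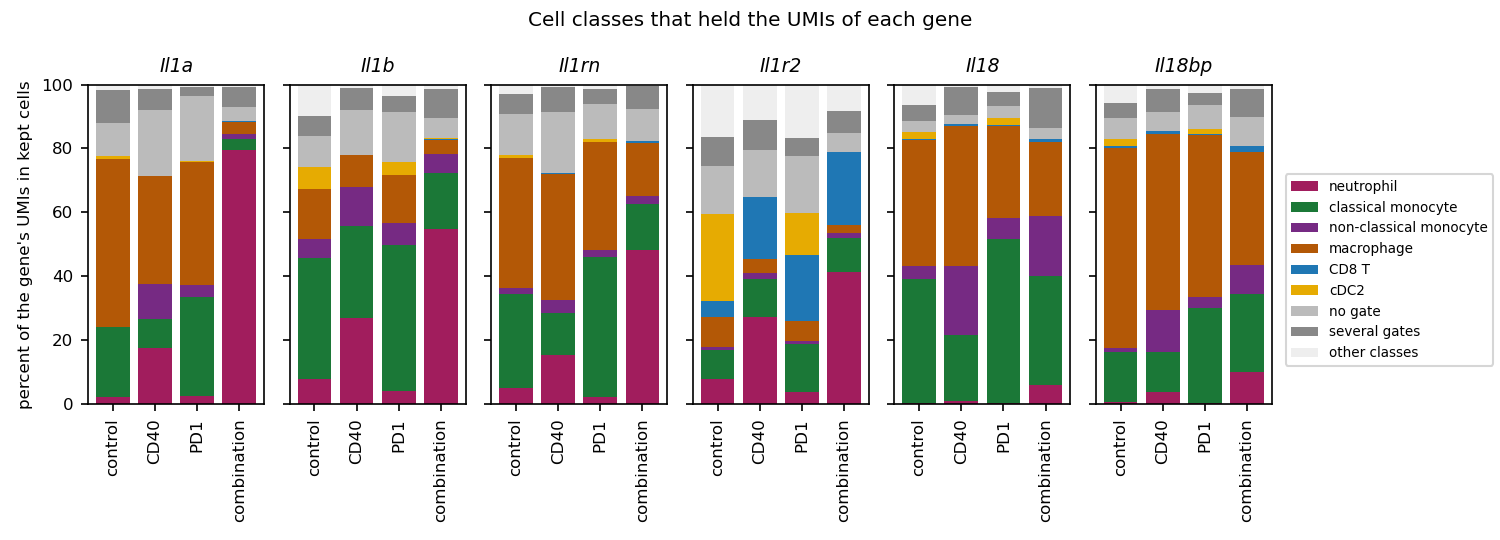
Percent of each gene's UMIs in kept cells held by each cell class (stacked bars, y axis in percent) for the 4 libraries, for 6 of the genes. The neutrophil part of Il1a was 79.5% in the combination library and at most 17.5% in the others.

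Among the 7 classes that reached 100 cells in each of the 4 libraries, Il1a in neutrophils had the largest difference of the 3 ligands. Il1a, whose product is active as an alarm signal without caspase cleavage, was at 20.3 (10.1 to 36.3), 95.5 (82.5 to 109.9), 32.5 (18.6 to 52.7) and 1751 (1719 to 1784) CPM in 207, 461, 174 and 1239 neutrophils. The combination library was far above the other 3, and the CD40 library stood second. The log2 ratio was 2.24 (1.36 to 3.26) for CD40 against control and 5.75 (5.05 to 6.56), a 53.9-fold difference, for combination against PD1. It was 4.20 (3.99 to 4.41) for combination against CD40 and 0.68 (-0.52 to 1.93) for PD1 against control, comparisons that share their libraries with the first pair. The UMIs behind these levels were 11, 193, 16 and 11253, so that the control and PD1 levels rest on few molecules. In the CD40 library 1 cell held 60 of the 193 UMIs, and in the PD1 library 1 cell held 10 of the 16. The counting intervals do not take in such unevenness between cells, so the ratio for CD40 against control rests on few cells.

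Il1a was also uneven among neutrophils of the same library. It was detected in 3.86% (1.68 to 7.47%), 8.46%, 3.45% and 50.7% of them, and in 4.55%, 6.09%, 3.74% and 44.0% after each cell was thinned to 2000 UMIs, which left out 97, 34, 67 and 61 shallower cells. In CD8 T cells, which should lack the transcript, it was detected in 0%, 0.0575%, 0% and 0.824% of cells, the zeros allowing up to 0.513% and 0.305% (3 cells of the class). The median depth was 2081, 3789, 2237.5 and 4541 UMIs in neutrophils and 12792 to 16489 UMIs in CD8 T cells, so neutrophils were the shallower class. The neutrophil shares were above this background in every library. In the combination library the median neutrophil had 1 UMI of Il1a, the 90th percentile was 27 and the highest cell had 220. There 261 cells (21.1%) had 10 UMIs or more, against 0, 3 and 1 cells in the control, CD40 and PD1 libraries, and the top 124 cells held 69.7% of the Il1a UMIs.

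Il1b, the ligand that needs cleavage by caspase-1 or a neutrophil protease, was abundant in neutrophils of every library. It was at 3067, 2882, 3305 and 8337 CPM. The first 3 libraries lay close together, and the combination library stood apart. The log2 ratio was 1.33 (1.26 to 1.41) for combination against PD1 and 1.53 for combination against CD40. For CD40 against control it was -0.09 (-0.17 to -0.01), and its sign was not settled, because median-of-ratios size factors gave 0.10, thinning 0.21 and the stricter gate 0.073. The ratios with and without the PD1 antibody lay apart, a contrast that was not tested.

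Il1rn, the receptor antagonist, was at 2065, 2909, 1907 and 6483 CPM in neutrophils. As for Il1b the combination library was highest, and the CD40 library was above the control and PD1 libraries. Its log2 ratio was 0.49 (0.40 to 0.59) for CD40 against control and 1.77 (1.67 to 1.86) for combination against PD1. Il1r2, the decoy receptor, differed less, at 1149, 979.9, 801 and 932 CPM. The control library was highest and the PD1 library lowest, with log2 ratios of -0.23 (size factors -0.04) and 0.22. Size factors raise the second ratio by the same amount as for Il1b, which went from 1.33 to 1.98.

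The receptor chains were less abundant in neutrophils. Il1r1, the signalling receptor, had only 3, 0, 1 and 3 UMIs in neutrophils. Il1rap, its accessory chain, was at 223, 148, 259.7 and 186 CPM, with log2 ratios of -0.59 for CD40 against control and -0.48 for combination against PD1, the latter 0.17 under size factors. Il18rap, the accessory chain of the IL-18 receptor, was at 146, 89.0, 132 and 89.3 CPM, with ratios of -0.71 and -0.56, the latter 0.09 under size factors. Il18r1 had only 7, 11, 4 and 46 UMIs in these cells. The median log2 ratio over all genes compared in neutrophils was -0.14 for CD40 against control, -0.61 for combination against PD1 and -0.46 for combination against CD40, and the ratios above are to be read against these shifts.

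Il18bp, the IL-18 inhibitor, was the other gene past 2-fold for CD40 against control in neutrophils. It was at 27.6, 138, 30.4 and 185 CPM, on 15, 279, 15 and 1187 UMIs. Both libraries with the CD40 antibody were above both without it. The log2 ratio was 2.32 (1.57 to 3.18) for CD40 against control and 2.60 (1.87 to 3.44) for combination against PD1. Il18 itself was low in these cells at 25.2 to 44.8 CPM, on 14, 51, 18 and 288 UMIs.

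In neutrophils 2 of the 8 genes with enough UMIs (at least 20 over both libraries) were 2-fold or more higher in CD40 against control, Il1a and Il18bp, where 5.77% of all genes compared were. None was 2-fold lower, against 7.31% of all genes. For combination against PD1 4 of 9 were 2-fold higher (Il1a, Il1b, Il1rn and Il18bp), against 3.93% of all genes, and none was 2-fold lower, against 27.1%. For combination against CD40 3 of 9 were 2-fold higher, against 3.94%, and for PD1 against control 0 of 8 lay past 2-fold in either direction, against 7.12%. The median log2 ratio of the compared members was 0.30 for combination against PD1, beside -0.61 over all genes.

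The neutrophil gate held cells of a pair of clusters, which had been made without the 10 genes. Cluster 26, led by S100a9, Cxcl2 and Lcn2, held 40.1%, 58.1%, 53.4% and 83.2% of the gated neutrophils. Cluster 24, led by S100a9, Retnlg, Ngp and Camp, held 58.5%, 40.1%, 42.0% and 14.4%. The mix of clusters thus moved with the libraries. Il1a was a transcript of cluster 26, at 41.6, 158, 67.2 and 2110.4 CPM there, while cluster 24 had 0, 0, 0 and 1 UMI of it. Il1rn was also higher in cluster 26 (3748, 4396, 3278 and 7778 CPM) than in cluster 24 (495, 468, 305 and 589 CPM). Il1b was the reverse in 3 libraries, at 1651, 2129, 2563 and 9089 CPM in cluster 26 and 5226, 4729.8, 6129.6 and 6796 CPM in cluster 24.

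Within cluster 26 alone the log2 ratio for combination against PD1 was 4.97 for Il1a, 1.83 for Il1b and 1.25 for Il1rn, so the combination library stood apart within the cluster as well. Within cluster 24 the ratio was 0.15 for Il1b and 0.95 for Il1rn. Il1r2 was at 969 to 1227 CPM in cluster 26 and 725 to 1346 CPM in cluster 24. Il18bp was higher with the CD40 antibody in both, at 26.5, 177, 33.6 and 196 CPM in cluster 26 and 28.0, 87.6, 13.3 and 175 CPM in cluster 24, the PD1 value of cluster 24 resting on 2 UMIs. The choice to split by cluster was made after the values were seen.

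**Figure D3:**
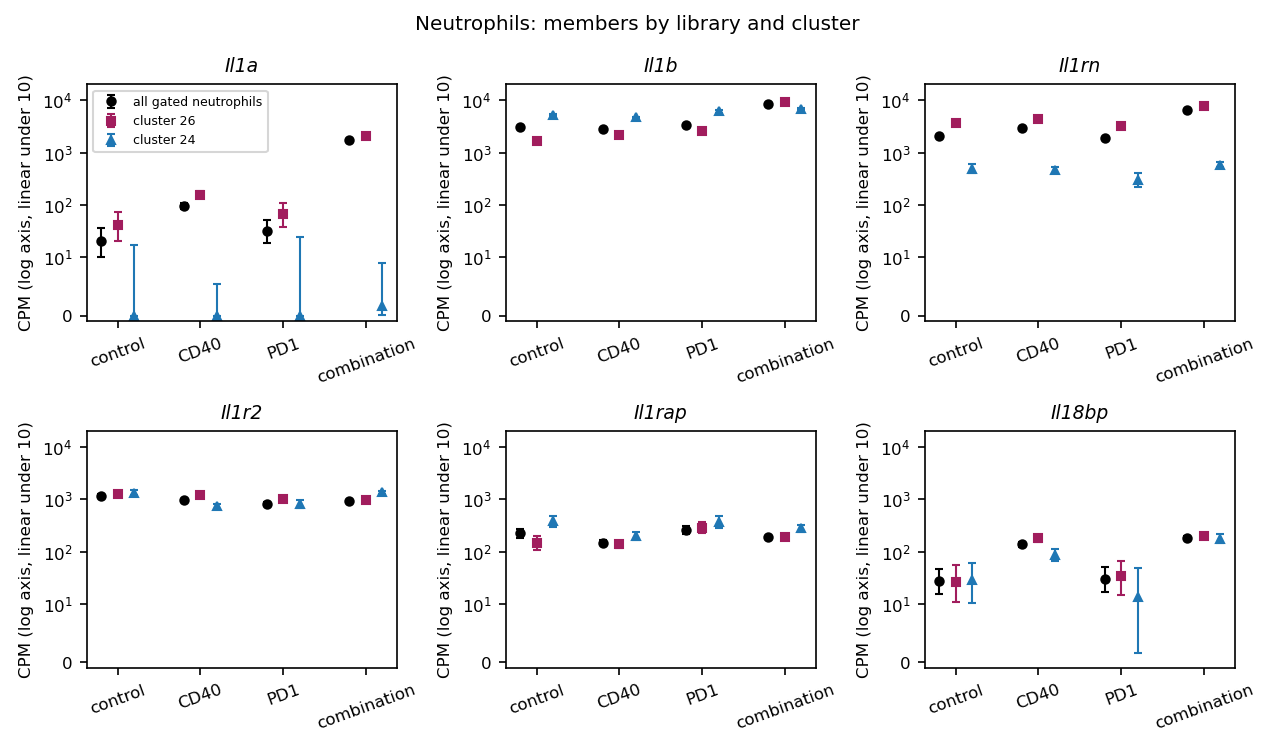
CPM of 6 of the genes in neutrophils by library, for all gated neutrophils (circles) and for clusters 26 (squares) and 24 (triangles), with 95% counting intervals on an axis that is logarithmic above 10 and linear below. Il1a was seen in cluster 26 and at 0 to 1 UMI in cluster 24, while Il1r2 stayed between 725 and 1346 CPM in both clusters.

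In the combination library the neutrophils with a UMI of Il1a differed from those without it in the other members. After thinning, 518 neutrophils had Il1a and 660 did not. Il1b was at 11318.5 CPM in the first and 7120.45 in the second set, and Il1rn at 9819.5 and 4080.3. Il1r2 went the other way, at 578 and 1393 CPM, whereas Il1rap was at 212 and 218. The set without Il1a takes in nearly all thinned cells of cluster 24, which had 1 UMI of Il1a in 178 cells there. Cluster 24 also had less Il1rn than cluster 26 (589 and 7778 CPM) and more Il1r2 (1346 and 969 CPM). The sets were not compared within cluster 26. These are sets of cells of 1 library and give no error between mice.

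The gated neutrophils carried all 10 neutrophil markers in every library, at 63696 to 77408 CPM in sum. Markers of classical monocytes summed to 1076, 1717, 1609 and 1349 CPM in them, with 8 of 8 detected in every library, and those of non-classical monocytes to 1197, 1352, 1126 and 606 CPM, with 7 or 8 of 8. Markers of macrophages summed to 215, 171, 316 and 90.4 CPM, and T cell markers to 38.6 to 58.8 CPM. The part of these markers in the Il1b and Il1rn values was not tested. A gate that demanded more neutrophil markers gave an Il1a ratio for combination against PD1 of 7.43.

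Among other genes of the pathway in neutrophils, those known to be induced by IL-1 and NF-kB were higher in the combination library. Of 12 compared from a list of 15, 10 were 2-fold higher for combination against PD1, against 3.93% of all genes, and 0 lower, against 27.1%, with a median log2 ratio of 2.41 beside -0.61 over all genes. For CD40 against control 3 of 10 were higher, against 5.77%, and 1 lower, against 7.31%, with a median of 0.47 beside -0.14. Saa3, an acute phase protein, was at 1.84, 30.7, 26.4 and 617 CPM. Icam1, an adhesion molecule, was at 44.2, 135, 87.2 and 423 CPM, and Tnf, a cytokine, at 101, 265, 87.2 and 666 CPM. All 3 were highest in the combination library, and they are named because they lay past 2-fold in both CD40 comparisons.

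Of 16 genes that process or release IL-1, 3 of 14 compared were 2-fold higher in CD40 against control, against 5.77% of all genes, and 0 lower, against 7.31%. In combination against PD1 6 of 16 were higher, against 3.93%, and 3 of 16 lower, against 27.1%, with a median of 0.10 beside -0.61 over all genes. Casp4, an inflammatory caspase, was at 68.1, 181, 71.0 and 319.8 CPM. Prtn3 and Elane, neutrophil proteases of immature granulocytes that can cut IL-1 family precursors, were at 3.68, 103, 0 and 92.0 CPM and at 0, 82.6, 0 and 93.1 CPM. Genes that relay the signal below the receptor were closer to all genes, with 0 of 14 past 2-fold in either direction in CD40 against control, against 13.1%, and 1 of 15 higher and 3 of 15 lower in combination against PD1, where the shares of all genes were as above. Of 12 interferon gamma response genes, 10 were 2-fold higher for CD40 against control (5.77% of all genes), 9 for combination against PD1 (3.93%) and 6 for PD1 against control (3.41%), with 1 lower in each. The median log2 ratios of the list were 2.15, 1.47 and 1.02, beside -0.14, -0.61 and -0.05 over all genes. The Il18bp ratios in the same comparisons were 2.32, 2.60 and 0.14. The last rests on 15 UMIs in each library, too few to place it, and a link between Il18bp and the list was not tested. Gbp4, an interferon-induced GTPase named by the rule for both CD40 comparisons, was at 12.9, 337, 36.5 and 749 CPM. By the same rule Irgm1 was at 81.0, 506, 181 and 856 CPM, Gbp2 at 175, 1134, 475 and 1921 CPM, and Gbp5 at 33.2, 211, 128 and 481 CPM.

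Classical monocytes, marked by Ly6c2 and Ccr2, held more of the Il1b UMIs than any other class in the control, CD40 and PD1 libraries (38.1%, 28.9% and 45.7%). In 1447, 1064, 2606 and 1303 of these cells Il1b was at 473, 341, 567 and 722 CPM. The CD40 library was lowest and the combination library highest, with log2 ratios of -0.47 (-0.52 to -0.43) for CD40 against control and 0.35 (0.32 to 0.38) for combination against PD1. Il1rn was at 370.0, 269, 601 and 523 CPM, so the CD40 library was lowest here too but the PD1 library was highest. Its ratio was 0.70 (0.66 to 0.74) for PD1 against control and -0.20 for combination against PD1.

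The remaining IL-1 genes of classical monocytes were lower. Il1r2 was at 42.5, 47.4, 47.7 and 65.0 CPM, highest in the combination library. Il1rap was at 24.9, 13.8, 22.4 and 12.7 CPM, and both libraries with the CD40 antibody were below both without it, with log2 ratios of -0.85 (-1.08 to -0.62) and -0.82 (-1.02 to -0.62). Il1a was at 5.90, 5.48, 6.61 and 19.5 CPM. Neutrophil markers summed to 306, 649, 377 and 957 CPM in these monocytes. Neutrophil RNA in that amount would carry 24.5 CPM of Il1a in the combination library, more than was measured. That estimate can be too high, because the markers were not in the proportions of neutrophils. In the combination library Csf3r and Cxcr2 were at 60.2 and 1.93 CPM in these monocytes and at 656 and 434 CPM in neutrophils. The Il1a value there is thus not read as the monocytes' own, and its source was not settled. The same calculation gave 14.7, 24.2, 19.1 and 117 CPM for Il1b. None of the 10 genes was past 2-fold in either direction for CD40 against control, where 4.84% of all genes were. For combination against PD1 1 of 9 was 2-fold higher, Il1a, against 2.77%.

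Non-classical monocytes, marked by Ace and Treml4, numbered 322, 907, 632 and 788. Il1b was at 376, 198, 417 and 510.1 CPM in them, lowest in the CD40 library and highest in the combination library. The log2 ratio was -0.93 (-1.02 to -0.83) for CD40 against control and 0.29 (0.22 to 0.36) for combination against PD1. Il1rn was at 124, 115, 144 and 186 CPM, and Il1r2 at 22.8, 9.59, 12.5 and 19.3 CPM, with ratios for Il1r2 of -1.25 and 0.63. The first of these was 0.090 after thinning and the second -0.86 with clusters in place of gates, so the direction of Il1r2 was not settled in either comparison. Il1rap was at 13.7, 6.71, 11.7 and 6.88 CPM, low in both libraries with the CD40 antibody, with ratios of -1.03 and -0.77.

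Il1a in non-classical monocytes rested on 1, 120, 25 and 263 UMIs. These are 0.292, 8.85, 3.75 and 23.2 CPM. By the same estimate, which can be too high, neutrophil RNA would carry 8.67 CPM in the combination library. The interval of the log2 ratio was 2.42 to 10.24 for CD40 against control. After thinning the ratio was -0.27, but that value was set by the floor. The control library had 1 UMI, and counts under 3 were set to 3, so thinning gives no direction for Il1a here. For CD40 against control 3 of 8 genes (Il1a, Il18 and Il18bp) were 2-fold higher, against 4.29% of all genes, and 3 of 8 (Il1r2, Il1rap and Il18rap) lower, against 3.52%. Of these Il18rap rested on 15 and 22 UMIs, and its ratio of -1.43 was 0.41 with clusters and 0.30 with the stricter gate. After thinning, 1 gene lay past 2-fold in either direction, in place of 6, and the share of all genes after thinning was not computed. For combination against PD1 1 of 8 was higher, Il1a, against 2.5%, with a log2 ratio of 2.63 and of 2.00 once the neutrophil RNA was taken off. The cells that passed this gate also carried macrophage markers, at 5181, 4839, 4116 and 3114 CPM in sum. Among these Apoe was at 2013, 451, 1429 and 211 CPM and C1qa at 716, 1094, 636 and 707 CPM, so the sum hides different directions.

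Macrophages, marked by complement C1q and Apoe, had the lowest Il1b of the phagocytes. In 1698, 1494, 1694 and 815 cells it was at 75.9, 37.3, 141 and 147 CPM. The CD40 library was lowest, the PD1 and combination libraries lay close together, and the log2 ratios were -1.03 (-1.11 to -0.95) for CD40 against control, 0.06 for combination against PD1, 0.89 for PD1 against control and 1.98 for combination against CD40. The markers of classical monocytes, the class with more Il1b, summed to 1374, 596, 1981 and 1056 CPM in these macrophages and were lowest in the same library, and their part in the result was not tested. Where macrophages were taken as clusters in place of gates, the ratio for CD40 against control was -0.33.

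Il1rn in macrophages was at 203, 263, 353 and 479.9 CPM. The control library was lowest and the combination library highest, and the ratios were 0.37, 0.44, 0.80 and 0.87 for CD40 against control, combination against PD1, PD1 against control and combination against CD40, so each antibody library was higher than its partner without that antibody. Il1r2 was at 17.3, 5.93, 15.6 and 11.4 CPM with a ratio of -1.55 (-1.74 to -1.36) for CD40 against control, which was -0.07 where clusters replaced gates. Il1rap was at 5.07 to 7.89 CPM. Il1a was at 5.65, 6.503, 6.32 and 17.4 CPM, of which neutrophil RNA would carry 0.0317, 0.187, 0.0820 and 6.85 CPM. The combination value was above what neutrophil RNA at this ratio would bring, with a log2 ratio of 1.46 (1.24 to 1.68) against PD1. With that RNA taken off, a step chosen after the values were seen, 10.5 and 6.24 CPM were left in the combination and PD1 libraries and the log2 ratio was 0.75. As in classical monocytes, the amount taken off can be too high. For CD40 against control 3 of 10 genes (Il1b, Il1r2 and, on 14 and 6 UMIs, Il1r1) were 2-fold lower, against 3.47% of all genes, and 0 of 10 higher, against 3.38%. For combination against PD1 1 of 9 was 2-fold higher as measured, Il1a, against 2.56%, and with the neutrophil RNA taken off Il1a was not past 2-fold.

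The balance of antagonist to ligand differed between classes as well as between libraries. The ratio of Il1rn to Il1b UMIs was 2.68, 7.05, 2.51 and 3.26 in macrophages. It was 0.329, 0.581, 0.344 and 0.366 in non-classical monocytes, 0.782, 0.790, 1.06 and 0.724 in classical monocytes and 0.673, 1.01, 0.577 and 0.778 in neutrophils. Macrophages were above 2 in every library and non-classical monocytes below 1, while the CD40 library had the highest ratio in 3 of these 4 classes. Over all kept cells the ratio was 1.02 (0.997 to 1.04), 1.75 (1.72 to 1.78), 1.10 (1.09 to 1.12) and 0.882 (0.874 to 0.890), highest in the CD40 and lowest in the combination library. Counting Il1a with Il1b gave 0.994, 1.67, 1.08 and 0.771. Within macrophages, neutrophils and non-classical monocytes, however, the Il1rn to Il1b ratio was higher in the combination than in the control and PD1 libraries. Only in classical monocytes was the combination library lowest. With Il1a counted, the ratio in neutrophils was 0.669, 0.977, 0.571 and 0.643, so the combination library was below the control there. The ratio over all kept cells takes in the mix of classes, whose part was not tested.

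**Figure D4:**
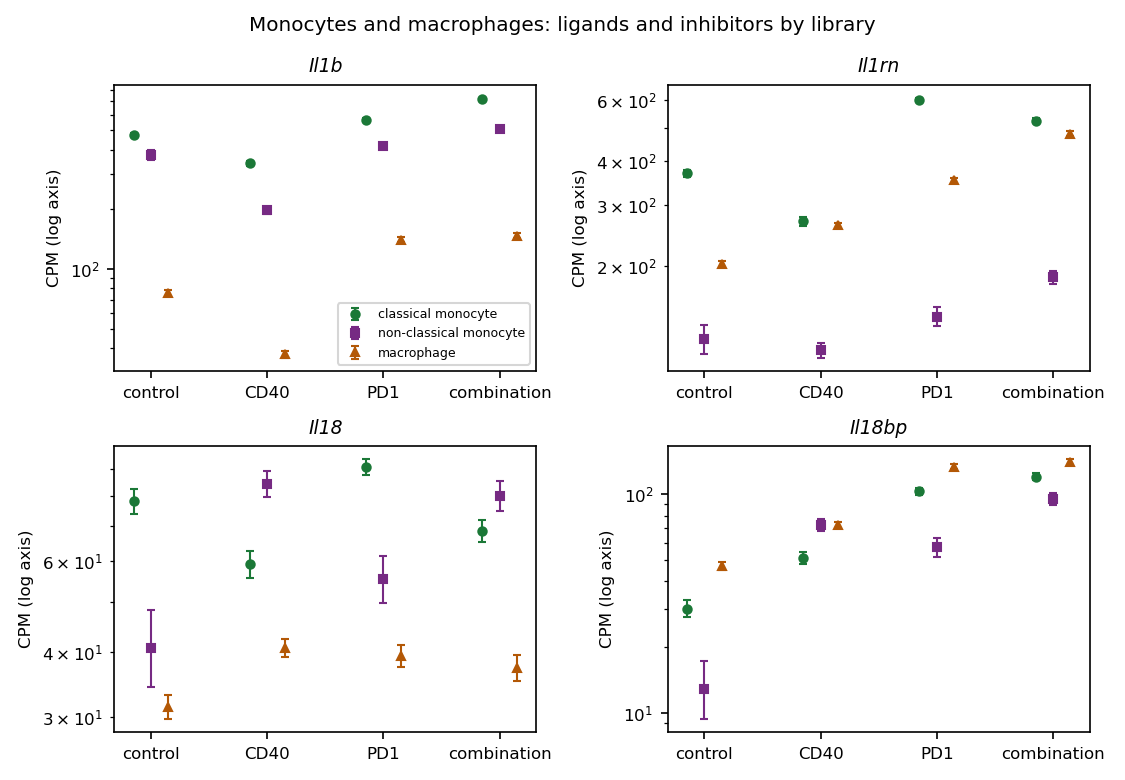
CPM of Il1b, Il1rn, Il18 and Il18bp by library in classical monocytes (circles), non-classical monocytes (squares) and macrophages (triangles), on log axes with 95% counting intervals. In all 3 classes Il1b was lowest in the CD40 library, and Il18bp was lowest in the control library.

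Il1r1 was almost absent from the sorted cells. It had 84, 69, 69 and 57 UMIs in kept cells, spread over dendritic cells, phagocytes and T cells. NK cells had 0 in every library, which allows up to 0.446 to 0.911 CPM, the level of 3 UMIs over the class total. Gamma-delta T cells, of which 16 to 25 were gated per library, had 9, 8, 1 and 7 UMIs, and CD4 T cells of the CD40 library 12. The decoy Il1r2 had 96.9, 106, 149 and 254.0 UMIs per UMI of Il1r1 over kept cells. CD45+ cells were sorted, so these values say nothing of Il1r1 in stroma or endothelium.

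Il1r2 was also a lymphocyte transcript. In regulatory T cells (Treg, with Foxp3) it was at 163, 327, 255 and 425 CPM, in 378, 97, 369 and 128 cells, and 1 cell held 25.6% of its UMIs in the combination library. In CD8 T cells it was at 43.7, 49.8, 110.4 and 65.1 CPM. The PD1 library was highest, with log2 ratios of 1.34 (1.18 to 1.49) for PD1 against control and -0.76 (-0.84 to -0.68) for combination against PD1. It was detected in 118, 275, 277 and 465 CD8 T cells, and the top cell held 2.98 to 11.5% of the UMIs. In cDC2 cells, a dendritic cell type, Il1r2 was at 406 and 302 CPM in the control and PD1 libraries, above every lymphocyte class there.

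In NK cells Il1r2 came from single cells: all 35 UMIs in the CD40 library were in 1 cell, and so were 78 of 84 in the PD1 library. The other libraries had 3 and 7 UMIs. Single cells also set Il1a and Il1b in Treg cells of the combination library, with 97 of 97 and 220 of 223 UMIs in 1 cell. In CD8 T cells Il1b was at 0.322, 0.427, 3.97 and 6.90 CPM, where neutrophil RNA would carry 0.960, 1.55, 1.90 and 8.34 CPM. In the PD1 library the measured level was above that amount, but of its 77 UMIs 1 cell held 40.3% and 5 cells 68.8%. In the other 3 libraries it was below it and is not read as the cells' own expression.

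Il18, unlike Il1b, was a transcript of monocytes and macrophages with little in neutrophils. In classical monocytes it was at 78.0, 59.0, 90.8 and 68.6 CPM, and both libraries with the CD40 antibody were below their partners, each with a log2 ratio of -0.40. In non-classical monocytes it was at 40.8, 84.3, 55.2 and 79.9 CPM, and there both libraries with the CD40 antibody were above, with ratios of 1.04 (0.79 to 1.31) and 0.53 (0.36 to 0.71). In macrophages it was at 31.4, 40.8, 39.4 and 37.3 CPM. Cells of the classical and non-classical monocyte gates thus went in opposite directions for the same gene, a contrast that was not tested. A cluster led by Cd5l, Slc40a1 and Vcam1 held 11.1% and 9.52% of the gated non-classical monocytes in the CD40 and combination libraries. In the control and PD1 libraries it held at most 4.04% and 5.06%. Its part in the Il18 and Il18bp values of this gate was not tested.

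Il18bp was lowest in the control library in all 3 phagocyte classes. In macrophages, which held 62.6%, 55.2%, 50.5% and 35.6% of its UMIs, it was at 47.1, 72.25, 134 and 141 CPM. The 2 libraries with the PD1 antibody were above the 2 without it, with log2 ratios of 1.502 (1.43 to 1.58) for PD1 against control and 0.96 (0.90 to 1.03) for combination against CD40. The ratio was 0.62 for CD40 against control and 0.08 for combination against PD1. In classical monocytes it was at 30.01, 51.1, 103 and 121 CPM, in the same order, with ratios of 0.77, 0.23, 1.78 and 1.24 for CD40 against control, combination against PD1, PD1 against control and combination against CD40. In non-classical monocytes it was at 12.8, 72.1, 57.3 and 95.2 CPM, with ratios of 2.49 (2.05 to 2.96) for CD40 against control and 2.16 (1.71 to 2.64) for PD1 against control. The mix of clusters moved here too. A cluster with Ccl12, Cxcl10 and Cxcl9 among its leading genes held 21.2%, 19.4%, 51.9% and 44.0% of the gated classical monocytes. Of the macrophages it held 20.5% and 13.3% in the PD1 and combination libraries, and at most 9.78% and 18.4% in the control and CD40 libraries. Its part in the Il18bp values was not tested.

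For PD1 against control Il18bp was the only one of the 10 genes past 2-fold higher in macrophages, where 1.97% of all genes were. Of 12 interferon gamma response genes in macrophages, 6 were 2-fold higher for CD40 against control (3.38% of all genes), 10 for PD1 against control, 0 for combination against PD1 (2.56%) and 1 for combination against CD40 (1.53%). The Il18bp ratios in the comparisons CD40 against control, PD1 against control, combination against PD1 and combination against CD40 were 0.62, 1.502, 0.08 and 0.96. The median log2 ratios of the list were 0.98, 1.39, 0.18 and 0.59, beside -0.06 to -0.01 over all genes. A link between Il18bp and the list was not tested. Each library enters 2 of these comparisons, so they are not independent.

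The ratio of Il18bp to Il18 UMIs was 0.948, 1.41, 1.94 and 2.46 over all kept cells, lowest in the control and highest in the combination library. In macrophages it was 1.503, 1.77, 3.39 and 3.77, and in classical monocytes 0.385, 0.866, 1.14 and 1.76. In non-classical monocytes it was 0.314, 0.856, 1.04 and 1.19. The order of the libraries was the same in these 3 classes. In neutrophils it was 1.07, 5.47, 0.833 and 4.12, high in both libraries with the CD40 antibody.

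Of the IL-18 receptor chains, Il18r1 RNA was mainly in T and NK cells, while Il18rap RNA was also found in neutrophils, at 146, 89.0, 132 and 89.3 CPM. CD8 T cells held 43.6%, 70.0%, 50.4% and 73.7% of the Il18r1 UMIs, in 585, 1738, 984 and 2914 cells. The level of Il18r1, the ligand-binding chain, was 179, 155, 106 and 133 CPM in them, highest in the control and lowest in the PD1 library. Log2 ratios were -0.21 (-0.29 to -0.12) for CD40 against control, 0.32 (0.25 to 0.39) for combination against PD1 and -0.75 (-0.84 to -0.65) for PD1 against control. Il18rap was at 170.4, 131, 114 and 109.9 CPM in CD8 T cells, below the neutrophil level in the PD1 library and above it in the other 3, and again highest in the control library, with ratios of -0.38, -0.05 and -0.58 for these 3 comparisons.

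In NK cells (498, 404, 681 and 532) the chains behaved differently from each other. Il18r1 was at 229, 135, 170.3 and 119.8 CPM, and both libraries with the CD40 antibody were below both without it, with log2 ratios of -0.76 (-0.91 to -0.61) for CD40 against control and -0.51 (-0.65 to -0.36) for combination against PD1. Il18rap was at 230.5, 278, 234 and 222 CPM, with ratios of 0.27 (0.14 to 0.40) and -0.08 (-0.19 to 0.03). NK cells with 3 or more cycling markers were 2.21%, 19.1%, 1.62% and 19.0% of the class. Without them Il18r1 was at 240.0, 149, 175 and 136 CPM, so the order was kept, and Il18rap at 241, 286, 240.1 and 236 CPM. The median depth of NK cells was 5576.5, 10986, 6169 and 11025 UMIs, which moves with the same libraries, and its part in the result was not tested.

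Of the 10 genes, 2 of 6 compared in NK cells were past 2-fold for CD40 against control (Il1rn and Il1r2, each on few UMIs), against 11.9% of all genes, and 1 of 7 (Il1r2) for combination against PD1, against 9.38%. Of 12 genes known to respond to IL-12 and IL-18 in lymphocytes, 3 were 2-fold higher in NK cells for CD40 against control, against 5.63% of all genes, and 1 lower, against 6.23%. For combination against PD1 1 was higher, against 5.8%, and 2 lower, against 3.58%. The list medians were 0.73 and -0.09 in these comparisons, beside -0.05 and -0.06 over all genes. Ifng, the interferon gamma gene, was at 44.0, 104, 72.3 and 258 CPM, with ratios of 1.24 and 1.83. Xcl1, a chemokine for dendritic cells, was at 657, 327, 714 and 273 CPM, with ratios of -1.01 and -1.39. In other lymphocytes Il18r1 was at 161 to 243 CPM in CD4 T cells and at 63.9, 118, 63.9 and 90.4 CPM in Treg cells. B cells had 0 to 2 UMIs of it.

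**Figure D5:**
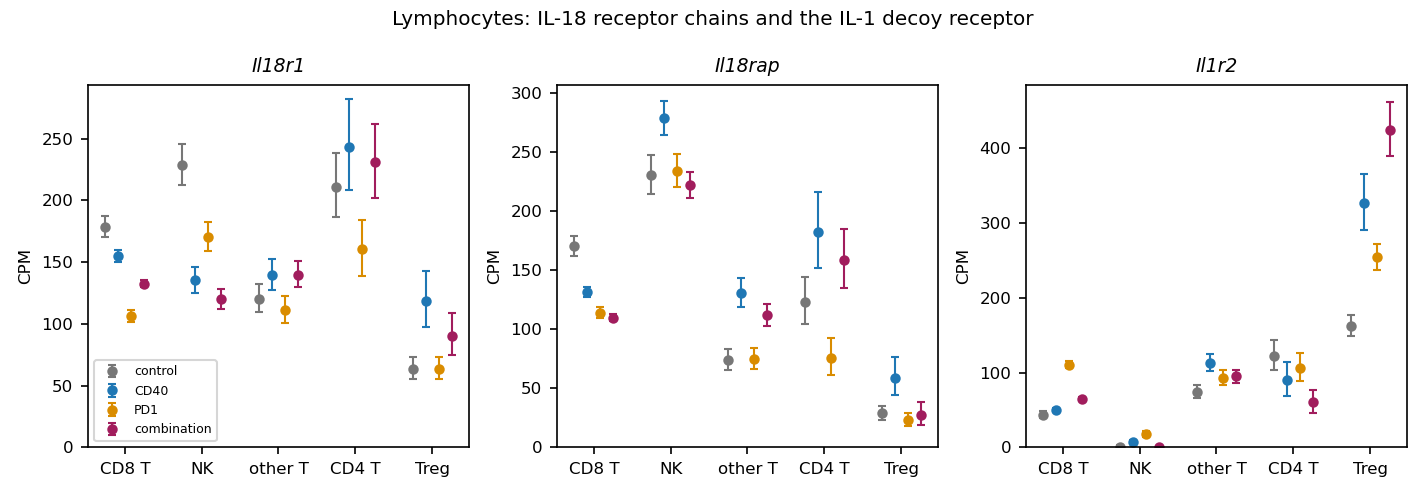
CPM of Il18r1, Il18rap and Il1r2 in 5 lymphocyte classes, with 1 point per library (colours) and 95% counting intervals. In NK cells Il18r1 was 119.8 and 135 CPM with the CD40 antibody and 170.3 and 229 CPM without it, and Il1r2 was highest in Treg cells.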

How the data were processed

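Tumour leukocytes of 4 groups were profiled with 5′ droplet chemistry, 1 library per group. The deposited matrices hold unnormalized UMI counts, which the authors made with Cell Ranger 7.0.0 on GRCm38, per the submitters' processing notes. The annotation release and the treatment of intronic reads, which raise the counts of long genes most, are not stated in the labels used.

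Barcodes were retained with 300 genes or more and no more than 10% of UMIs in 13 mitochondrial genes, and 111, 149, 257 and 239 of them (control, CD40, PD1, combination) with a Scrublet score of 0.25 or more were left out as predicted doublets, a limit taken over from earlier work on these data. Each remaining cell was named by how many genes of fixed marker lists it expressed, none of them among the 10 genes reported. The minimum numbers of markers were set after the markers' distributions, and not the members' values, had been seen. Clusters (Leiden, resolution 1, 2000 variable genes without the members, 30 principal components, 15 neighbours) served as an alternative naming. UMIs were summed per class and library. A ratio was compared with at least 20 UMIs over its 2 libraries and 100 cells in each, counts under 3 were set to 3, and a log2 ratio of 1 (2-fold) was the limit. All genes of a class were compared in the same way for the background percentages. The amount of a gene that neutrophil RNA would carry is the summed neutrophil marker CPM of a class times the gene's ratio to those markers in gated neutrophils of the same library. It counts every UMI of these markers as neutrophil RNA, so it is too high where a class expresses some of them itself.

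The 10 genes, the lists and the comparisons were chosen with earlier results of these data known. All members are named. From each other list up to 4 genes past 2-fold in the same direction in both CD40 comparisons, with at least 50 UMIs in the higher library, are named in the class described, as is the list's count. The log2 ratio, its interval and the 2-fold call were tested on simulated Poisson counts summed per class. The gates, clusters, thinning and the estimate of neutrophil RNA were not simulated, nor was unevenness between cells. Tools were scanpy 1.11.5, anndata 0.12.19, igraph 0.11.9, scikit-learn 1.9.0, scipy 1.17.1, numpy 2.4.6, pandas 2.3.3 and matplotlib 3.10.9 under Python 3.11.15. Promoters were matched by symbol to a RefSeq table, which held 15 for the 10 genes. Gene coordinates came from GENCODE vM21 by Ensembl identifier. The alternatives were other class names, a stricter gate, equal weight per cell, size factors, doublets kept, all barcodes and thinning to 2000 UMIs.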

Additional observations from a re-analysis of the deposited data

Results flagged for a closer look

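For 5 pairs of gene and class the CD40 antibody went, with the main settings, with opposite signs without and with the PD1 antibody, each with a counting interval off 0 and at least 2-fold apart. None of these differences was tested, since each value comes from 2 single libraries. Of the 5, Il1b in non-classical monocytes kept its opposite signs under all 7 alternatives, and in each of the other 4 a ratio changed sign under at least 1. Il1b in neutrophils had a log2 ratio of -0.089 (3067 and 2882 CPM) for CD40 against control and 1.33 (3305 and 8337 CPM) for combination against PD1. Its first ratio was above 0 with size factors (0.10), thinning (0.21), the stricter gate (0.073), all barcodes (0.025) and within cluster 26 (0.37). In non-classical monocytes Il1b had -0.93 and 0.29, the second being 0.012 with clusters in place of gates. There Il1r2 had -1.25 (22.8 and 9.59 CPM) and 0.63 (12.5 and 19.3 CPM), but 0.090 for the first after thinning and -0.86 for the second with clusters. In macrophages Il1b had -1.03 (75.9 and 37.3 CPM) and 0.062 (141 and 147 CPM), the second being -0.049 after thinning. In NK cells Il1r2 had 2.91 and -4.08, the second being 1.63 with clusters, where the first gave no value. With the gates 1 cell held all 35 UMIs of the CD40 library and 1 cell 78 of the 84 UMIs of the PD1 library.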

How the results depend on the processing

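No paired analysis was possible because each group was 1 library and the labels give no replicate numbers. Of the 51 member ratios past 2-fold in a class, all kept their direction with size factors, with doublets kept and over all barcodes, and 49, 48 and 49 of them stayed past 2-fold. A stricter gate kept the direction of 49 (43 past 2-fold), equal weight per cell that of 46 of 47 (41), clusters in place of gates that of 44 of 50 (32) and thinning that of 42 of 47 (31). The causes of the values below were not tested. Ratios are log2, for combination against PD1 unless stated, and counts are members past 2-fold in either direction. The share over all genes was not computed under the alternatives, so these counts have no background beside them.

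Clusters in place of gates gave Il1b in neutrophils 1.48, Il18bp in macrophages for PD1 against control 1.19, a count of 0 in macrophages for CD40 against control and of 3 in classical monocytes. They reversed Il1r2 and Il18rap in non-classical monocytes (-0.24 for combination against CD40 and 0.41 for CD40 against control), Il1rn in CD8 T cells for CD40 against control (-0.30), Il1rn in NK cells for PD1 against control (-0.42) and Il1r2 in NK cells (1.63, and 2.95 for combination against CD40). The stricter gate gave neutrophil ratios of 7.43 for Il1a, 1.10 for Il1b and 2.25 for Il1rn, 1.41 for Il18bp in macrophages for PD1 against control, a count of 2 in macrophages and of 3 in non-classical monocytes for CD40 against control. It reversed Il1rn in CD8 T cells (-0.22) and Il18rap in non-classical monocytes (0.30), both for CD40 against control.

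Equal weight per cell gave neutrophil ratios of 6.65 for Il1a and 1.19 for Il1b, 1.58 for Il18bp in macrophages for PD1 against control, a count of 3 in non-classical monocytes for CD40 against control, and reversed Il1rn in CD8 T cells for CD40 against control (-0.21). In the library order used above it gave an Il18bp to Il18 ratio of 0.739, 1.53, 1.56 and 2.58 and an Il1rn to Il1b ratio of 0.841, 1.22, 0.930 and 0.778. Size factors gave neutrophil ratios of 1.98 for Il1b and 2.41 for Il1rn.

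Thinning gave 1.17 for Il1b and, for CD40 against control, 3.42 for Il18bp in neutrophils, 1.63 for Il18bp in macrophages for PD1 against control, and counts in non-classical monocytes of 1 for CD40 against control and 2. It reversed Il1r2 in non-classical monocytes for CD40 against control (0.090) and Il1b in NK cells for PD1 against control (-0.045). Il1a changed sign in non-classical monocytes (-0.27 for CD40 against control, -0.56 for PD1 against control) and in CD8 T cells (-0.35). These Il1a values were set by the floor of 3 UMIs and show no direction. Before thinning the control non-classical monocytes had 1 UMI of Il1a and the PD1 CD8 T cells 0. Among settings chosen after seeing the data, cluster 26 alone gave neutrophil ratios of 4.97 for Il1a, 1.83 for Il1b and 1.25 for Il1rn. Cluster 24 alone gave 0.15 for Il1b, 0.95 for Il1rn and a count of 1 in each CD40 comparison, while Il1a gave no ratio. Taking off the neutrophil RNA gave Il1a 0.75 in macrophages and 2.00 in non-classical monocytes. Depth limits Il1r1 in every class and Il1a in neutrophils of the control and PD1 libraries.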

Other observations

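Among the other ligands of the family Il1f9, the older symbol of the IL-36 gamma gene, had the most UMIs in every library. It had 260, 986, 199 and 3762 UMIs in kept cells (control, CD40, PD1, combination), of which neutrophils held 186, 742, 124 and 3052. Il1f6, the IL-36 alpha gene, had 93 UMIs in the combination library, 73 of them in neutrophils, and 0 to 10 elsewhere. Il33 had 13 to 59 UMIs. Of the other receptors, Il1rapl1, an accessory protein-like member, had 4984, 4439, 3106 and 3728 UMIs, most of any class in macrophages in the first 3 libraries (1709, 1784 and 1043) and in CD8 T cells in the combination library (783). Sigirr, an inhibitory receptor of the family, had 1555, 1830, 1891 and 2728 UMIs, with more in CD8 T cells (347, 1011, 678 and 1716) than in any other class. Il1rl1, the IL-33 receptor, was at 2.79, 6.93, 0.722 and 5.18 CPM in CD8 T cells, higher in both libraries with the CD40 antibody. Il1rl2, the IL-36 receptor, had most of its UMIs in macrophages in the control library (275 of 485).

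The genes most like each member over the 28 sums of 7 classes by 4 libraries, by Pearson's r of log2(CPM + 5), are given as a description, since the sums share libraries and differ in depth. They were Gm34643 (r = 0.931) and Tbk1 (0.925) for Il1a, Zfp36 (0.969) and Rhog (0.967) for Il1b, Clec4d (0.987) for Il1rn and Csf1 (0.936) for Il1r2. For Il1rap they were led by Hdc (0.973), for Il18 by Dram1 (0.985), for Il18r1 by Prkcq (0.995) and for Il18rap by Gabbr1 (0.963). Those of Il18bp were Clcn7 (0.961), Batf2 (0.949) and Nampt (0.947).

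In neutrophils of the CD40 library 26 cells had Il1a after thinning and 401 did not, and these sets had Il1b at 3846 and 3454 CPM and Il1rn at 5423 and 2616 CPM. The Il1b of macrophages was detected in 21.1%, 14.0%, 30.3% and 28.8% of cells, and the Il18bp in 44.4%, 69.7%, 71.0% and 90.2%, or 7.67%, 13.003%, 21.4% and 26.4% after thinning. In CD8 T cells Il18bp was detected in 0.686%, 0.691%, 0.305% and 0.824% of thinned cells.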
